A study of Mus musculus with 48 samples.

Results

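The comparison described here is between livers of corticosterone-treated mice with and without a dietary inhibitor of fat breakdown, among animals whose fed glucose was in the low range. It holds 17 of the study's 48 liver libraries: the corticosterone mice whose fed glucose label lay below 150 (the labels give no unit). Of these, 13 mice had eaten food with atglistatin and 4 had eaten the control diet. The choice used only the treatment and glucose labels and no expression value, so glucose itself is described and not tested.

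All mice were male C57BL6J animals. Corticosterone, the main glucocorticoid of rodents, was dissolved at 100 ug/ml in the drinking water for 2 weeks, and its vehicle was 1% EtOH. Atglistatin was mixed into the Teklad 8640 food at 571 mg/kg. The remaining libraries came from 10 corticosterone mice on the control diet with glucose of 242 or more, 1 corticosterone mouse on atglistatin with glucose of 212, 10 vehicle mice on the control diet and 10 vehicle mice on atglistatin. All 17 mice of the comparison thus received corticosterone, and nothing in the labels ties replicate numbers of the 2 diets to each other.

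Adipose triglyceride lipase, encoded by Pnpla2, removes the first fatty acid from stored triglyceride, and atglistatin blocks the mouse enzyme. Glucocorticoids raise fatty acid release from fat tissue and glucose output from the liver, and in excess they cause insulin resistance. In the liver, sterol synthesis is driven by the transcription factor SREBP2, while foreign compounds act through nuclear receptors and the NRF2 pathway on genes of drug metabolism.

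Total counts of the 3′ end libraries ran from 14613220 to 18619242 in the 4 control-diet mice and from 10832711 to 21175603 in the 13 atglistatin mice. Levels are given as CPM (counts scaled to TMM-adjusted library size) and are compared between libraries for 1 gene at a time, not between genes. The summed level of 13 hepatocyte markers was 140600 to 183600 CPM in the control-diet livers and 122400 to 166800 CPM in the atglistatin livers. The pancreatic gene Cpa1, above 20 CPM in 6 libraries of other groups, reached at most 8.24 CPM in these 17. One library stood apart: atglistatin replicate 41 had a median correlation of 0.958 with its group, against 0.983 to 0.989 for the other 12, and the lowest insulin label of the group. In a bulk sample, fewer cells of a type and less RNA per cell cannot be told apart.

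Glucose was lower in most atglistatin mice even within this range. The control-diet replicates 29, 32, 33 and 49 had glucose labels of 141, 145, 134 and 131, while the atglistatin mice ran from 95 to 138 with a median of 114. Nearest to the limit of 150 were control-diet replicate 32 with 145 and atglistatin replicate 24 with 138 on the inside, and atglistatin replicate 26 with 212 and control-diet replicate 36 with 242 on the outside. Of the 13 atglistatin mice 5, with labels of 124 to 138, lay at 120 or above. Some results are therefore also given for these 5 against the 4 controls, and with glucose as a term in the fit of the 17 libraries.

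Insulin overlapped between the diets. The labels of the 4 controls were 38.5, 14.5, 9.31 and 27.7 in the same order, and those of the atglistatin mice ran from 2.19 to 32.8 with a median of 10.7. Means were 16.4 ± 10.9 (SD, n = 13) with atglistatin and 22.5 ± 13.2 (SD, n = 4) without, a difference of -6.12 (2-sided exact permutation test, p = 0.351, where 0.00042 is the smallest p this design allows). The vehicle mice on the control diet had insulin of 1.19 to 3.46 and glucose of 113 to 146, so all 4 corticosterone controls lay above them in insulin and within their range in glucose. Without control-diet replicate 29 the difference was -0.792 (exact permutation test, p = 0.875), and among mice with glucose of 120 or more it was 3.75 in the other direction (exact permutation test, p = 0.698).

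**Figure D1:**
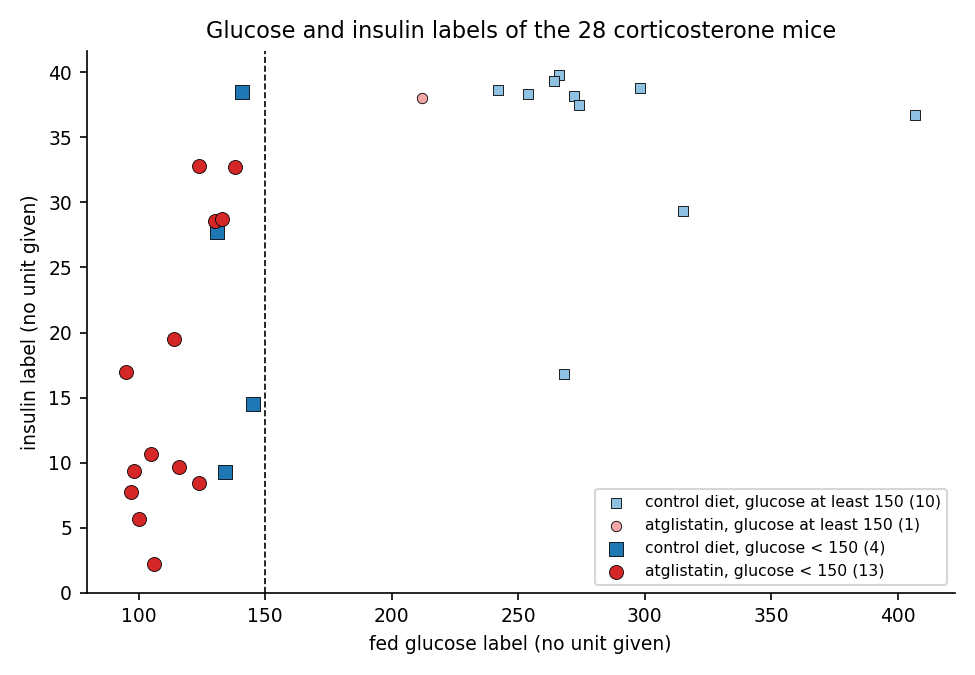
Insulin label against fed glucose label (no units in the labels) of the 28 corticosterone mice, squares for the control diet and circles for atglistatin, with the limit of 150 as a dashed line. The 4 control-diet mice left of the line have glucose of 131 to 145, at the upper end of the 13 atglistatin mice, while insulin spans 2.19 to 38.5 on that side.

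Among these low-glucose mice, livers of the atglistatin group had higher transcript levels of sterol synthesis genes, of several p53 targets and of several drug-metabolising enzymes, and lower levels of some acute phase proteins and of glutamine synthetase and ornithine aminotransferase. None of the listed genes of lipolysis, fatty acid oxidation or glucose production was called. With edgeR's quasi-likelihood test across 12688 genes and an adjusted p below 0.05 as the threshold, 205 genes (1.62% of those tested) were higher and 184 (1.45%) were lower with atglistatin. Of these, 74 and 81 changed at least 2-fold. The median log2 fold change over all genes was 0.00.

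The counts depended on single mice, above all on the 4 controls. Without control-diet replicate 32 the calls were 88 higher and 51 lower, and without replicate 33 they were 81 and 51. They were 248 and 329 without control-diet replicate 29, and 256 and 287 without atglistatin replicate 41. A core of 113 genes, 77 higher and 36 lower, was called whichever of the 17 libraries was left out. With glucose as a covariate, 59 genes were higher and 28 lower. Of the 389 called genes, 76 were called there too, 54 higher and 22 lower, and 376 had the same sign. Both fits use these 17 libraries, so their signs are not independent. In 136 of the 389, 78 higher and 58 lower, no atglistatin library overlapped a control library. Over all 12688 genes tested this held for 104 higher (0.82%) and 82 lower (0.646%).

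**Figure D2:**
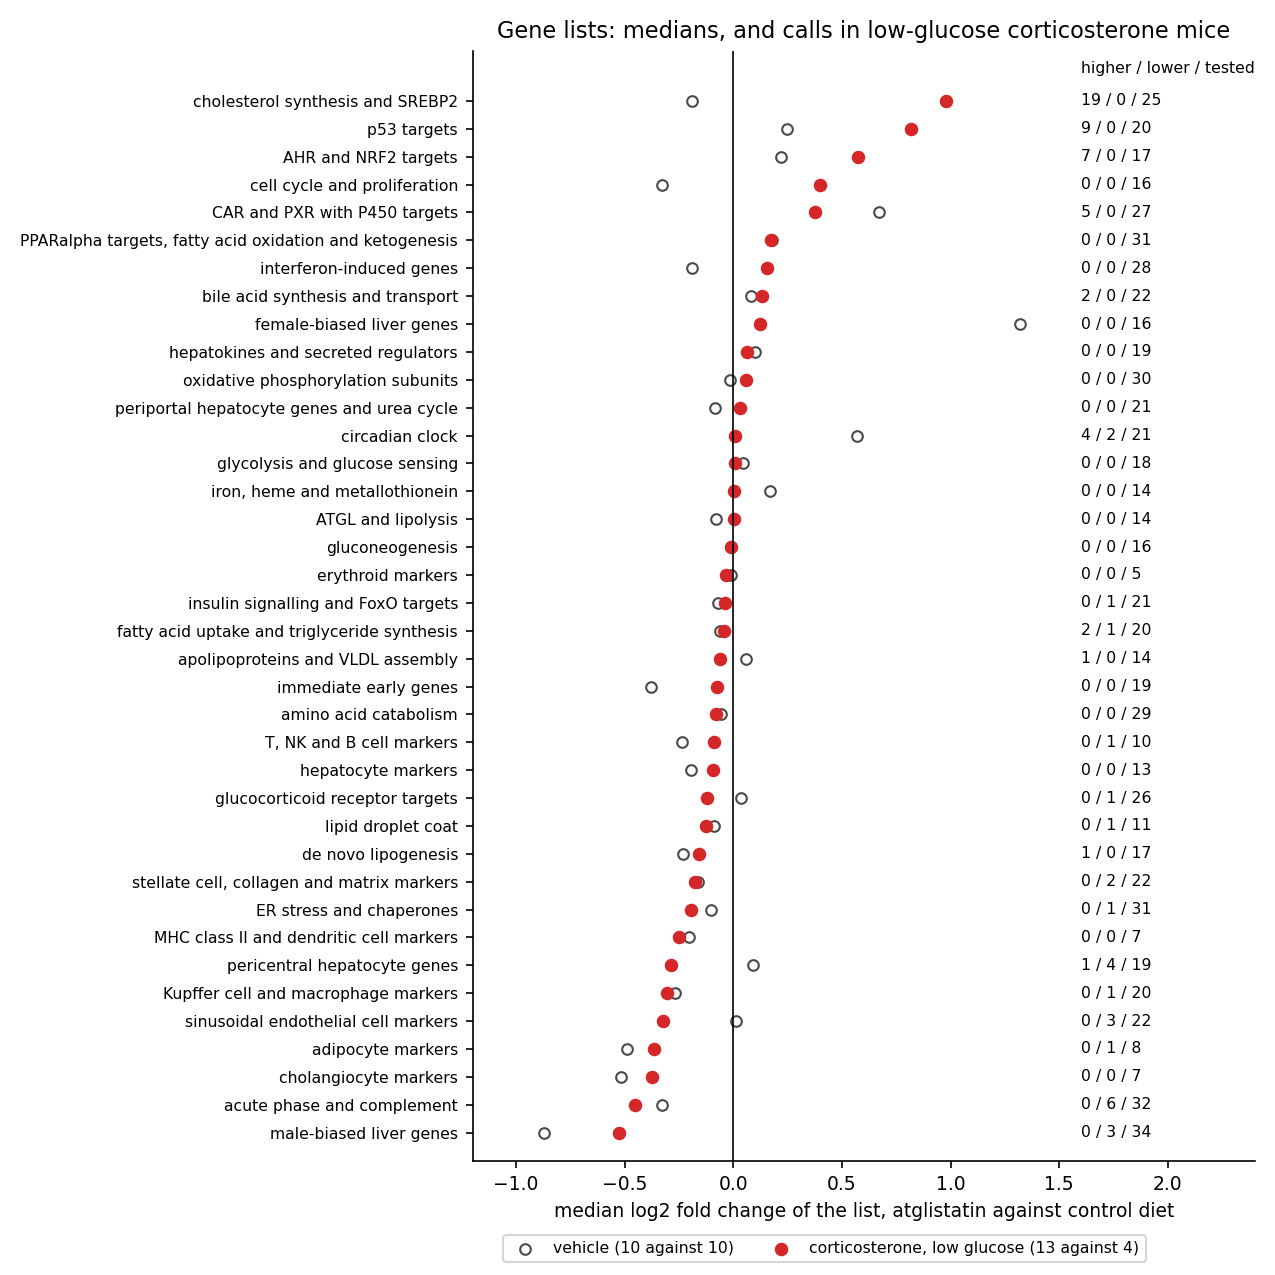
Median log2 fold change of each gene list, atglistatin against control diet, in low-glucose corticosterone mice (filled red, 13 against 4 libraries) and in vehicle mice (open, 10 against 10), with the numbers of members higher, lower and tested at the right; the pancreatic acinar list is not drawn. Of the filled points the cholesterol list lies farthest to the right at 0.98, followed by the p53 list at 0.82, while lipolysis and gluconeogenesis lie near 0.

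Sterol synthesis was the list with the most calls. Of 25 listed genes, all of which were tested, 19 rose, 0 fell and 6 did not pass, beside 1.62% of all genes higher. The median log2 fold change of the list was 0.98, all 25 members had a positive value, and the median of all genes was 0.00. The number that rose was 11 without control-diet replicate 33 and 14 without replicate 32. With glucose as a covariate it was 5 (median 0.60), and among mice with glucose of 120 or more it was 8 (median 0.78).

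The promoters of 3 of these genes are shown because the sterol genes moved together. Each line runs 5′ to 3′ on the gene's strand over 300 bases around the start site in RefSeq (GRCm38.p6). Capitals mark CCAAT boxes on either strand, the site of the factor NF-Y, which acts beside SREBP2, and in Hmgcs1 also a match to the sterol regulatory element TCACNCCAC. Hmgcs1 lies at chr13:119690101-119690400 (plus strand), Cyp51 at chr5:4104648-4104947 (minus strand) and Msmo1 at chr8:64733529-64733828 (minus strand).
Hmgcs1: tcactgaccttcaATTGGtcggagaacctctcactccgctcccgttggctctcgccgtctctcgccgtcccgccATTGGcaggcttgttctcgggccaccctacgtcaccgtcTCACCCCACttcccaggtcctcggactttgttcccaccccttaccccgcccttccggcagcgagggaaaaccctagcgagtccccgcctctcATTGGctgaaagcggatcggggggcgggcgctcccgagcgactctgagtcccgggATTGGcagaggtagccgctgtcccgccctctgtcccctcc
Cyp51: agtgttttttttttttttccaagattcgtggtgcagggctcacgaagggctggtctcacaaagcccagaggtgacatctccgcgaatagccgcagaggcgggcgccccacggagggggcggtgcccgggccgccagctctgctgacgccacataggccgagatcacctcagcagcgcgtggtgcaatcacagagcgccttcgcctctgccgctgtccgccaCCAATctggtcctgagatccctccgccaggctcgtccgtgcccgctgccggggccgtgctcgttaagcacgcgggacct
Msmo1: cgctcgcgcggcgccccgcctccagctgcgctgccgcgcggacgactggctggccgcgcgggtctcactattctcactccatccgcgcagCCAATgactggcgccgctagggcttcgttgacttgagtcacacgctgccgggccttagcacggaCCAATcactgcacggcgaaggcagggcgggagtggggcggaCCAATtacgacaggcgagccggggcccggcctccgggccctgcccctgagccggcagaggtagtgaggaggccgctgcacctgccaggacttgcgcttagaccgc

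Both strands were searched, and none of the matches shown overlap. Of the 25 listed sterol genes 17 had a promoter entry, and 16 of those 17 held at least 1 CCAAT, with Acat2 as the exception. Of all 27025 gene symbols with a promoter of that length 41.1% held one. The Hmgcs1 window held 4 CCAAT boxes, that of Msmo1 held 3 and that of Cyp51 held 1. Of the 17 promoters, that of Hmgcs1 alone matched the sterol regulatory element as spelled above, which 1.44% of the 27025 symbols held. A match is a string of letters in this window and not a measured binding site.

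Hmgcs1 makes HMG-CoA in the cytosol, at the head of the pathway. Its level was 115, 108, 72.7 and 131 CPM in control-diet replicates 29, 32, 33 and 49, the order kept throughout, and 159 to 370 CPM (median 267) with atglistatin. The ranges did not overlap, and Hmgcs1 was 2.53-fold higher (log2 fold change 1.34 ± 0.26 (SE), adjusted p = 8.35e-04). The value was 0.97, adjusted p = 0.0634 in the fit with glucose.

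The steps from mevalonate to farnesyl diphosphate were mixed. Mvk and Pmvk, successive kinases of mevalonate, rose by 0.98 ± 0.21 (adjusted p = 0.00236) and 0.90 ± 0.22 (adjusted p = 0.0108). Mvd, the next decarboxylase, did not pass (0.91 ± 0.33, adjusted p = 0.125), nor did Fdps, farnesyl diphosphate synthase (1.02 ± 0.31, adjusted p = 0.0589). Idi1, the isomerase between them, was at 1.93, 1.145, 0.835 and 1.35 CPM in the controls and 2.02 to 6.68 CPM (median 3.59) with atglistatin, without overlap. It was called (1.61 ± 0.38, adjusted p = 0.00909), but not without control-diet replicate 32 (1.55, adjusted p = 0.0683) or 33 (1.42, adjusted p = 0.105).

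Fdft1 (ENSMUSG00000021273, chromosome 14, 63145150 to 63179578, GRCm38) encodes squalene synthase, the first step that leads only to sterols. Its level was 14.4, 16.5, 11.4 and 16.6 CPM in the controls and 27.5 to 67.9 CPM (median 41.65) with atglistatin. Every atglistatin library lay above every control, and Fdft1 was 3.0-fold higher (1.58 ± 0.21, adjusted p = 6.92e-07). It was also called with glucose as a covariate (1.26, adjusted p = 0.00272) and among mice with glucose of 120 or more (1.43, adjusted p = 5.92e-05).

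Sqle (ENSMUSG00000022351, chromosome 15, 59315077 to 59331192) encodes squalene epoxidase, which follows it. Its level was 13.3, 18.3, 10.4 and 13.4 CPM in the controls and 29.02 to 85.75 CPM (median 60.3) with atglistatin. Again no library overlapped, and Sqle was 4.07-fold higher (2.03 ± 0.38, adjusted p = 4.21e-04). It was called with glucose as a covariate (1.54, adjusted p = 0.0107) and among mice with glucose of 120 or more (1.74, adjusted p = 0.0117). For scale, Sqle ran from 29.2 to 79.3 CPM in vehicle mice on the control diet and from 4.08 to 56.9 CPM in the corticosterone mice of higher glucose, so the atglistatin livers lay mostly in the vehicle range.

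The later steps from lanosterol to cholesterol mostly rose. Cyp51, lanosterol demethylase, was at 68.97, 51.9, 34.4 and 67.5 CPM in the controls and 102 to 262 CPM (median 184) with atglistatin. The groups were separate and Cyp51 was 3.24-fold higher (1.69 ± 0.29, adjusted p = 1.35e-04). Vehicle mice on the control diet had 133.5 to 281 CPM.

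Msmo1, a sterol methyl oxidase, was at 90.4, 98.4, 54.95 and 76.75 CPM in the controls and 145 to 322 CPM (median 242) with atglistatin (1.52 ± 0.30, adjusted p = 8.74e-04). Nsdhl, the dehydrogenase that acts next, was at 25.4, 15.8, 10.6 and 19.6 CPM in the controls and 28.35 to 80.3 CPM (median 52.9) with atglistatin (1.59 ± 0.29, adjusted p = 3.72e-04). Hsd17b7, the keto-reductase after it, was at 40.75, 33.8, 26.9 and 39.95 CPM against 60.1 to 103 CPM (median 92.6; 1.28 ± 0.21, adjusted p = 8.89e-05). These 3 enzymes remove the same methyl groups in turn, and in each of them all 13 atglistatin libraries lay above all 4 controls.

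Lss, lanosterol synthase, rose by 1.06 ± 0.22 (adjusted p = 0.00233), with 12 of 13 libraries above all controls. Dhcr7, a reductase at the end of the pathway, rose by 0.84 ± 0.23 (adjusted p = 0.0236). Sc5d, a sterol desaturase, was at 97.8, 96.9, 91.4 and 152 CPM in the controls and 125 to 217 CPM (median 169) with atglistatin, so control-diet replicate 49 lay within the atglistatin range. Sc5d was called (0.66 ± 0.15, adjusted p = 0.00843), but not without control-diet replicate 32 (0.60, adjusted p = 0.0852) or 33 (0.58, adjusted p = 0.105).

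The regulators were less uniform than the enzymes. Srebf2, which encodes SREBP2, was at 15.4, 15.7, 11.4 and 14.5 CPM against 12.6 to 24.2 CPM (median 15.2) and did not pass (0.26 ± 0.26, adjusted p = 0.721). Insig1, which holds SREBP2 back when sterols are plentiful, was at 29.9, 28.6, 21.4 and 32.7 CPM against 39.1 to 72.04 CPM (median 55.65), without overlap. It was called (0.97 ± 0.27, adjusted p = 0.0289), but not without control-diet replicate 32 (0.98, adjusted p = 0.126) or 33 (0.86, adjusted p = 0.207).

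Stard4, a sterol transfer protein, rose by 0.85 ± 0.15 (adjusted p = 2.05e-04). Of the members named here that rose, Idi1, Sc5d and Insig1 lost the call without 1 or another single library.

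**Figure D3:**
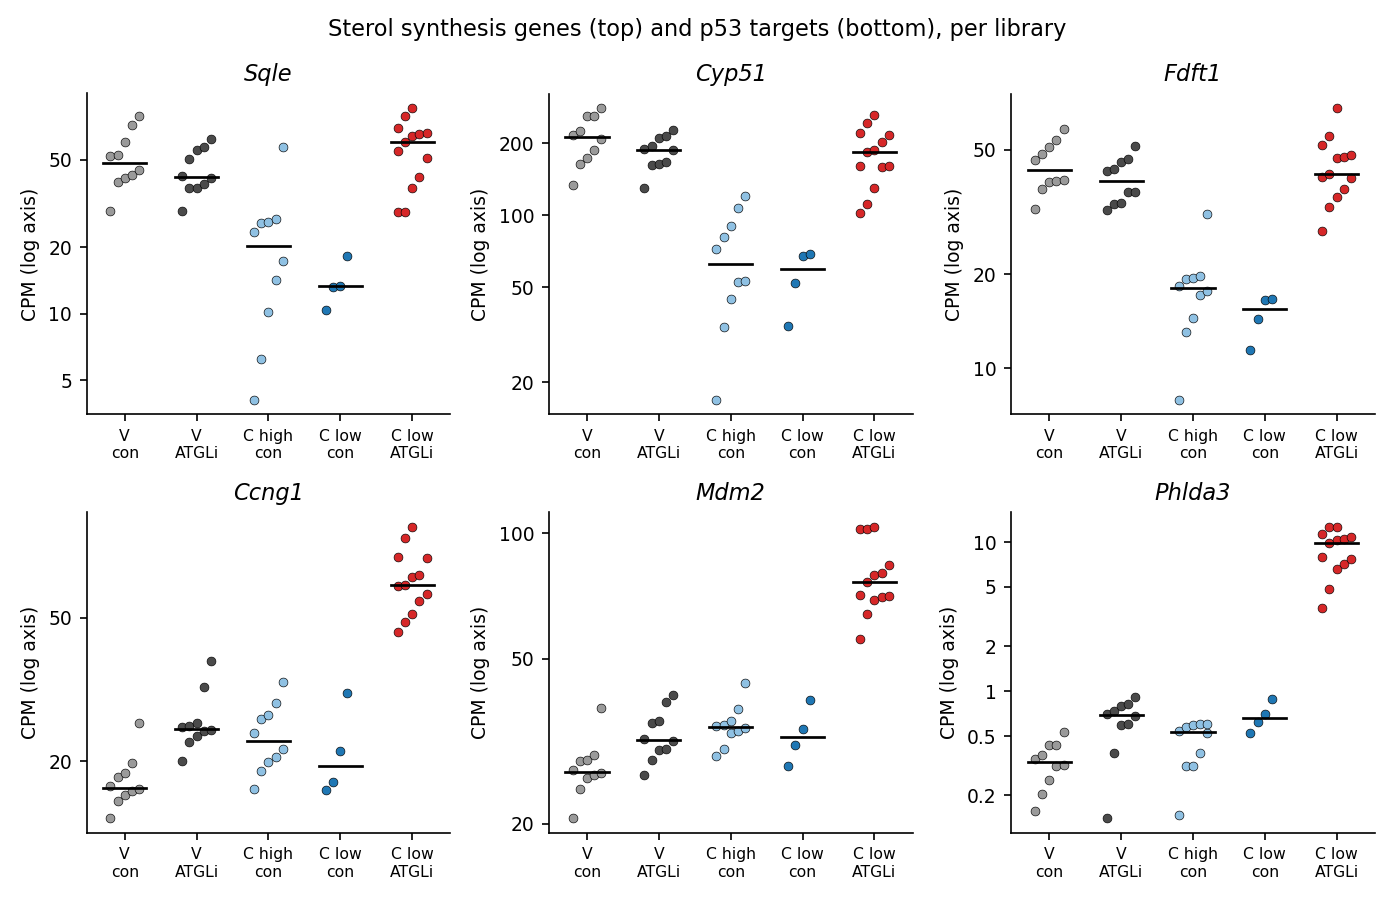
CPM per library on a log axis of 3 sterol synthesis genes (Sqle, Cyp51, Fdft1) and 3 p53 targets (Ccng1, Mdm2, Phlda3), for vehicle mice on the control and atglistatin diets and corticosterone mice on the control diet with higher glucose, on the control diet with low glucose and on atglistatin with low glucose, with bars at the median. In all 6 genes the 13 low-glucose atglistatin libraries lie above the 4 low-glucose controls, for Sqle at 29.02 to 85.75 CPM against 10.4 to 18.3 CPM.

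Targets of p53, the stress-activated transcription factor, were the list with the next most calls. Of 22 listed 20 were tested, of which 9 rose, 0 fell and 11 did not pass, beside 1.62% of all genes higher. The median log2 fold change was 0.82, beside 0.00 for all genes. Single left-out libraries gave 8 or 9 members, glucose as a covariate gave 9 (median 0.76) and the mice with glucose of 120 or more gave 8 (median 0.72). The count thus moved by at most 1 under these settings.

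The promoters of Ccng1 and Mdm2 are shown because both genes rose and both windows hold the same p53 motif. They run 5′ to 3′ on the minus strand, Ccng1 at chr11:40755237-40755536 and Mdm2 at chr10:117710709-117711008 (RefSeq, GRCm38.p6), and capitals mark a decamer of the p53 response element. This decamer was found on either strand in 8 of the 17 listed p53 genes with a promoter entry and in 9.55% of all gene symbols with one. It was in 4 of the 6 called genes with an entry, and also in Cdkn1a and Bax, which did not pass. A match is not a measured binding site.
Ccng1: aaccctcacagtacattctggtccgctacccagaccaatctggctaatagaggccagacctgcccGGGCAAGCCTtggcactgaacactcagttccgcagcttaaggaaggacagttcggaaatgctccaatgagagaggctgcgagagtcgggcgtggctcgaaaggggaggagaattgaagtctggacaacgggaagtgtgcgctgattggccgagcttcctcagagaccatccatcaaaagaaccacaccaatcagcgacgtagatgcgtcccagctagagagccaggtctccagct
Mdm2: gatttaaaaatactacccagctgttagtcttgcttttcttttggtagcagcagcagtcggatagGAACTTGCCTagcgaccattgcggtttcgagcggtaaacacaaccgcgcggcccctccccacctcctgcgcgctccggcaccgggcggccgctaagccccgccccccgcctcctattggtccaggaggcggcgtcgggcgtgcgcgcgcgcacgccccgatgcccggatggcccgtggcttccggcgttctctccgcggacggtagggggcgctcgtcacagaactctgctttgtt

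Phlda3 (ENSMUSG00000041801, chromosome 1, 135766119 to 135769136) encodes a p53-induced inhibitor of AKT signalling. Its level was 0.619, 0.7, 0.887 and 0.525 CPM in the controls and 3.58 to 12.7 CPM (median 9.92) with atglistatin. In counts this was 7 to 17 per control library and 59 to 211 per atglistatin library, with a wide gap between the groups. Phlda3 was 12.65-fold higher (3.66 ± 0.30, adjusted p = 3.28e-12). The vehicle mice had 0.156 to 0.53 CPM on the control diet and 0.141 to 0.917 CPM on atglistatin, and the corticosterone mice of higher glucose had 0.148 to 0.605 CPM.

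Ccng1 (chromosome 11, 40748552 to 40755311), which encodes cyclin G1, was at 30.85, 21.4, 17.5 and 16.6 CPM in the controls and 45.55 to 89.4 CPM (median 61.6) with atglistatin. The groups were separate and Ccng1 was 2.96-fold higher (1.57 ± 0.18, adjusted p = 1.72e-08). Mdm2, the ubiquitin ligase that degrades p53, was at 39.7, 30.9, 27.5 and 33.9 CPM against 55.9 to 104 CPM (median 76.6; 1.27 ± 0.14, adjusted p = 6.16e-09). Its groups were separate as well.

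Fas, a death receptor gene of the list, did not pass (0.18 ± 0.13, adjusted p = 0.554). The death receptor genes Eda2r and Tnfrsf10b were near the lower end of detection in the controls. Eda2r was at 0.619, 0.0636, 0.104 and 0.225 CPM (1 to 8 counts) in the controls and 1.85 to 6.255 CPM (median 3.61) with atglistatin. All atglistatin libraries were above all controls (3.97 ± 0.42, adjusted p = 4.25e-09), and the value was 4.82 without control-diet replicate 29. Tnfrsf10b was at 0.155, 0.254, 0.1565 and 0.07495 CPM (1 to 4 counts) in the controls and 1.13 to 5.015 CPM (median 2.25; 14 to 82 counts) with atglistatin, without overlap (3.87 ± 0.52, adjusted p = 1.19e-06). With so few counts in the controls, the sizes of these fold changes are imprecise.

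Smaller rises were seen in Aen, a p53-induced nuclease gene (1.35 ± 0.23, adjusted p = 9.43e-05), and in Zmat3, which encodes an RNA-binding protein (0.86 ± 0.15, adjusted p = 1.48e-04), both without overlap. Trp53inp1 was called (1.02 ± 0.27, adjusted p = 0.0216), but not without control-diet replicate 33 (0.97, adjusted p = 0.133) or 49 (0.86, adjusted p = 0.101). Gtse1, whose product binds p53, was at 0.309, 0.127, 0.104 and 0 CPM in the controls and 0.729 to 6.24 CPM (median 1.26) with atglistatin (3.72 ± 0.63, adjusted p = 9.56e-05), and its value was 4.34 without control-diet replicate 29.

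Cdkn1a, the cell cycle inhibitor p21 and the best known p53 target, did not pass. It was at 147, 492, 420 and 111 CPM in the controls and 121 to 477.5 CPM (median 317) with atglistatin. The controls lay in a low pair (replicates 29 and 49) and a high pair (32 and 33) that together spanned the whole atglistatin range. The log2 fold change was 0.02 ± 0.34, adjusted p = 0.989. Bax, a mediator of apoptosis, did not pass either (0.87 ± 0.30, adjusted p = 0.109), nor did Gdf15, a secreted stress factor (0.48 ± 0.41, adjusted p = 0.66), or Btg2, an antiproliferative gene (0.78 ± 0.48, adjusted p = 0.476). Of the cell cycle list, 0 of 16 tested genes were called, with a median of 0.40.

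**Figure D4:**
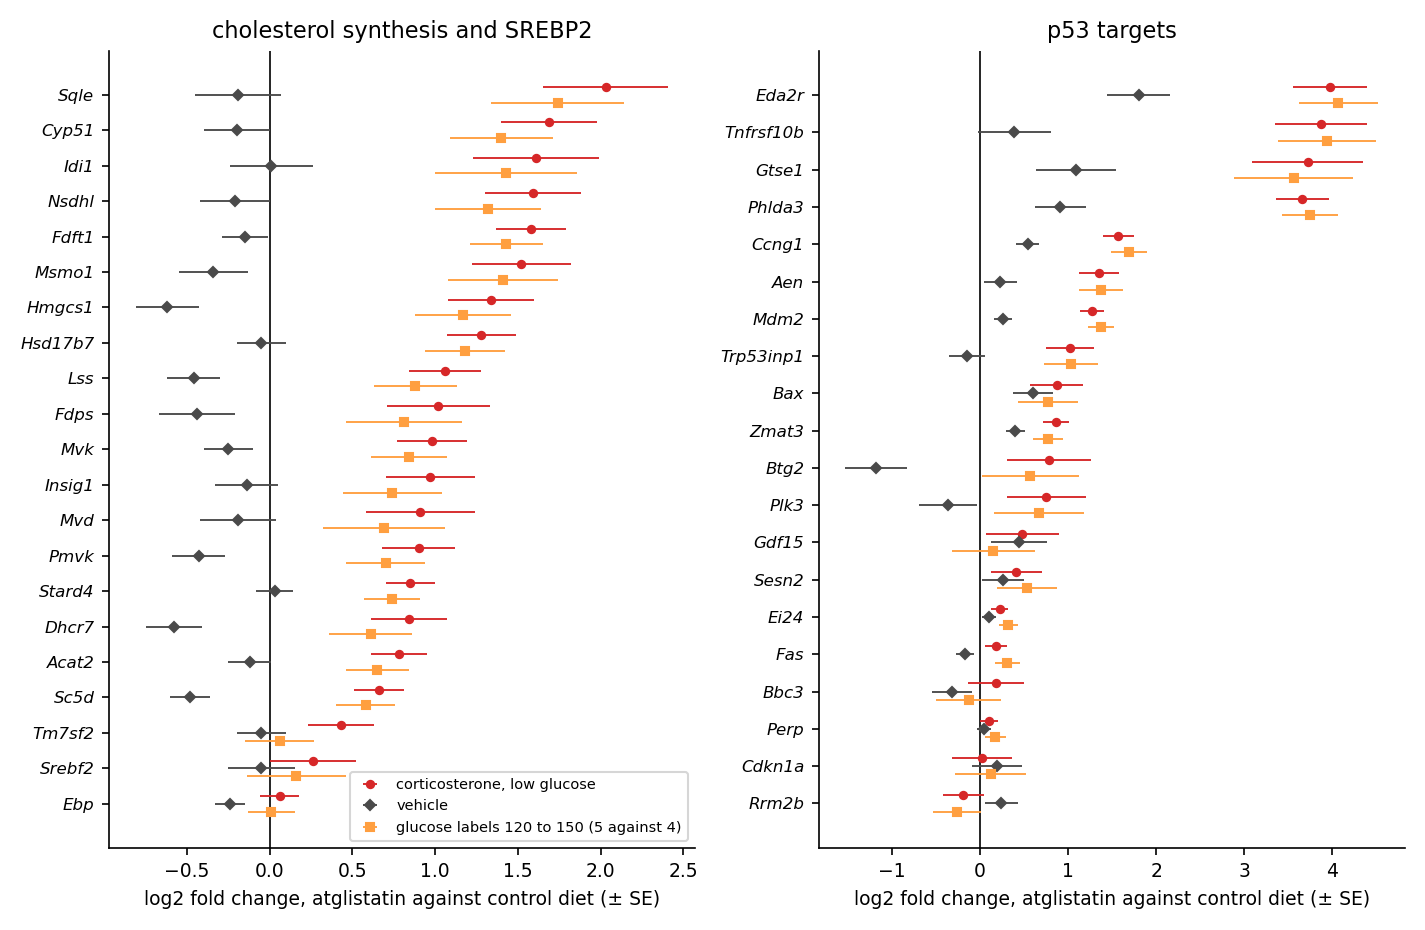
Log2 fold change with its standard error of 21 of the 25 tested members of the sterol list and the 20 of the p53 list, atglistatin against control diet, in low-glucose corticosterone mice (13 against 4), in vehicle mice (10 against 10) and in corticosterone mice with glucose of 120 to 150 (5 against 4). The vehicle points of the sterol list lie mostly below 0, with Hmgcs1 at -0.62 against 1.34 ± 0.26 under corticosterone; in the p53 list Eda2r is at 1.80 under vehicle.

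Genes of drug and oxidant metabolism formed the next group. Of 17 tested AHR and NRF2 targets 7 rose, 0 fell and 10 did not pass (median 0.57), and of 27 tested CAR and PXR targets 5 rose, 0 fell and 22 did not pass (median 0.38), beside 1.62% of all genes higher. In the fit with glucose as a covariate 3 and 1 rose. The CAR and PXR list gave 3 without control-diet replicate 33, and among mice with glucose of 120 or more the lists gave 5 and 3. Under limma voom with sample weights they gave 13 and 11.

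Cbr3 (ENSMUSG00000022947, chromosome 16, 93683215 to 93690990), a carbonyl reductase outside these lists, had the largest log2 fold change of the called genes that averaged at least 5 CPM. It was at 1.93, 1.02, 0.835 and 0.8995 CPM in the controls and 7.835 to 27.7 CPM (median 13.99) with atglistatin. No library overlapped and Cbr3 was 12.93-fold higher (3.69 ± 0.37, adjusted p = 1.35e-09). In vehicle mice it ran from 0.307 to 1.74 CPM on the control diet and from 2.13 to 6.3 CPM on atglistatin.

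Gstm1, a glutathione transferase, was at 1999, 2274, 1762 and 2001 CPM in the controls and 4227 to 7485 CPM (median 5322) with atglistatin, without overlap (1.40 ± 0.14, adjusted p = 1.87e-09). Gstm3 was at 145, 143, 154 and 127 CPM against 369 to 2725 CPM (median 605), the highest value being that of atglistatin replicate 41 (2.42 ± 0.43, adjusted p = 2.05e-04). Gsta1, of a related class, was called (2.82 ± 0.63, adjusted p = 0.00503), but not without control-diet replicate 33 (2.50, adjusted p = 0.0682). Reads of near-identical members of these families can be shared, so single members are uncertain.

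Of the NRF2 targets, Nqo1, a quinone reductase, was at 5.1, 2.23, 3.08 and 4.65 CPM in the controls and 7.605 to 12.8 CPM (median 9.8) with atglistatin, without overlap (1.38 ± 0.25, adjusted p = 2.37e-04). Gclc, the catalytic subunit of the first enzyme of glutathione synthesis, was at 184, 85.3, 98.5 and 171.5 CPM against 228 to 386.5 CPM (median 273.5), also without overlap (1.08 ± 0.17, adjusted p = 3.37e-05). Ephx1, an epoxide hydrolase, was at 306, 125, 124 and 416 CPM against 457 to 825.5 CPM (median 583; 1.34 ± 0.23, adjusted p = 1.42e-04). In Gclc and Ephx1 the controls 29 and 49 lay above 32 and 33, and all 4 lay below every atglistatin library. Hmox1, heme oxygenase, did not pass (0.05 ± 0.39, adjusted p = 0.979), nor did Gclm, the partner of Gclc (0.39 ± 0.14, adjusted p = 0.144).

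Cyp2a5, a P450 enzyme under the control of several of these receptors, was at 329, 112, 115.5 and 356 CPM in the controls and 390 to 1543 CPM (median 866) with atglistatin. The groups were separate (1.96 ± 0.33, adjusted p = 9.84e-05), although controls 29 and 49 were far above 32 and 33. Cyp1a2, an AHR target of the pericentral zone, was at 387, 610, 602 and 563 CPM against 428 to 1770 CPM (median 1515), and atglistatin replicate 41, at 428 CPM, was the only one of the 13 within the control range (1.39 ± 0.29, adjusted p = 0.00167). With glucose as a covariate Cyp1a2 was not called (1.18, adjusted p = 0.0826).

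The prime targets of CAR and PXR did not pass. Cyp2b10 was at 484, 556, 489 and 382 CPM in the controls and 140 to 848 CPM (median 340.5) with atglistatin (-0.51 ± 0.40, adjusted p = 0.618). Cyp3a11 was at 4523, 5520, 5503 and 5840 CPM against 5240 to 8687 CPM (median 6114; 0.22 ± 0.18, adjusted p = 0.639). The exporter gene Abcc2 rose without overlap (0.50 ± 0.10, adjusted p = 0.00145). Abcc4, another exporter, was called (1.18 ± 0.29, adjusted p = 0.011), but not without control-diet replicate 32 (1.17, adjusted p = 0.0676) or 33 (1.03, adjusted p = 0.12).

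Acute phase and complement genes were lower in part. Of 32 tested members 6 fell, 0 rose and 26 did not pass (median -0.45), beside 1.45% of all genes lower. The count was 10 without atglistatin replicate 41, 9 without control-diet replicate 29, 4 without replicate 32, and 5 with glucose as a covariate. It was 12 with log2 insulin as a covariate and 19 under limma voom with sample weights.

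Orm3 (ENSMUSG00000028359, chromosome 4, 63356162 to 63359511), an orosomucoid, was at 49.6, 21.8, 19.8 and 44.4 CPM in the controls and 1.645 to 8.685 CPM (median 4.68) with atglistatin. All atglistatin libraries were below all controls, and Orm3 was 6.91-fold lower (-2.79 ± 0.38, adjusted p = 1.51e-06). The corticosterone mice of higher glucose had 9.28 to 64.3 CPM, and the vehicle mice on the control diet had 0.395 to 7.94 CPM. The related Orm2 fell (-1.83 ± 0.47, adjusted p = 0.0168), while Orm1 did not pass (-0.43 ± 0.16, adjusted p = 0.147); these copies are similar, so their reads may be shared.

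Saa1, serum amyloid A, varied widely in both groups. It was at 63.7, 619, 422 and 42.05 CPM in the controls and 2.58 to 81.1 CPM (median 5.905) with atglistatin, and of the 13 only replicate 41, at 81.1 CPM, overlapped the controls. Saa1 was called (-4.56 ± 0.82, adjusted p = 2.56e-04), with values of -5.50 without atglistatin replicate 41 and -3.86 without control-diet replicate 32. The near-identical Saa2 did not pass (-2.79 ± 0.87, adjusted p = 0.0638), but was called without atglistatin replicate 41 (-3.73, adjusted p = 0.00589).

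The complement genes C9 (-0.84 ± 0.16, adjusted p = 7.43e-04) and C4b (-0.86 ± 0.16, adjusted p = 2.94e-04) fell with no overlap between groups. C9 was at 590, 911, 856.5 and 793 CPM against 280 to 589 CPM (median 436.5), so its groups met closely at control-diet replicate 29. Lcn2, an iron carrier of innate defence, was at 89.9, 245, 202 and 90.2 CPM against 6.195 to 464.5 CPM (median 19.6), the highest value being that of atglistatin replicate 41. It did not pass (-1.52 ± 0.69, adjusted p = 0.271), but was called without that library (-2.94, adjusted p = 6.6e-05). Haptoglobin, Hp, did not pass (-0.17 ± 0.23, adjusted p = 0.82).

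Among 19 tested genes of pericentral hepatocytes, those around the central vein, 4 fell and 1, Cyp1a2, rose (median -0.29), beside 1.45% of all genes lower and 1.62% higher. Among mice with glucose of 120 or more 1 fell. Glul (ENSMUSG00000026473, chromosome 1, 153899944 to 153909723), glutamine synthetase, was at 1143, 1456, 1261 and 1584 CPM in the controls and 139.5 to 847.5 CPM (median 672) with atglistatin. The groups did not overlap and Glul was 2.12-fold lower (-1.08 ± 0.21, adjusted p = 0.00102), with the lowest value in atglistatin replicate 41. The vehicle mice on the control diet had 425 to 1010 CPM, and the corticosterone mice of higher glucose had 817 to 1487 CPM.

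Oat, ornithine aminotransferase, was at 212, 225, 207 and 285 CPM in the controls and 41.65 to 176 CPM (median 121) with atglistatin, without overlap (-0.97 ± 0.19, adjusted p = 0.00102). The vehicle mice on the control diet had 301 to 544 CPM. With glucose as a covariate neither gene was called (Glul -1.17, adjusted p = 0.132, and Oat -0.79, adjusted p = 0.226), and 0 of the 19 genes were.

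Rhbg, an ammonium transporter of the same zone, fell without overlap (-1.17 ± 0.27, adjusted p = 0.00625). The glutamate transporter Slc1a2 was close to the threshold (-0.79 ± 0.23, adjusted p = 0.0489) and lost its call in 10 of the 17 leave-outs. The Wnt targets Axin2 (-0.06 ± 0.19, adjusted p = 0.938) and Lgr5 (0.00 ± 0.27, adjusted p = 0.997), which mark this zone, did not pass. Cyp2e1, a pericentral P450, was at 1901, 3165, 3154 and 2248 CPM against 217 to 2005 CPM (median 1331; -0.88 ± 0.28, adjusted p = 0.0638), and it was called without atglistatin replicate 41 (-0.79, adjusted p = 0.0328). Of 21 tested genes of the periportal zone and urea cycle 0 were called (median 0.03).

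**Figure D5:**
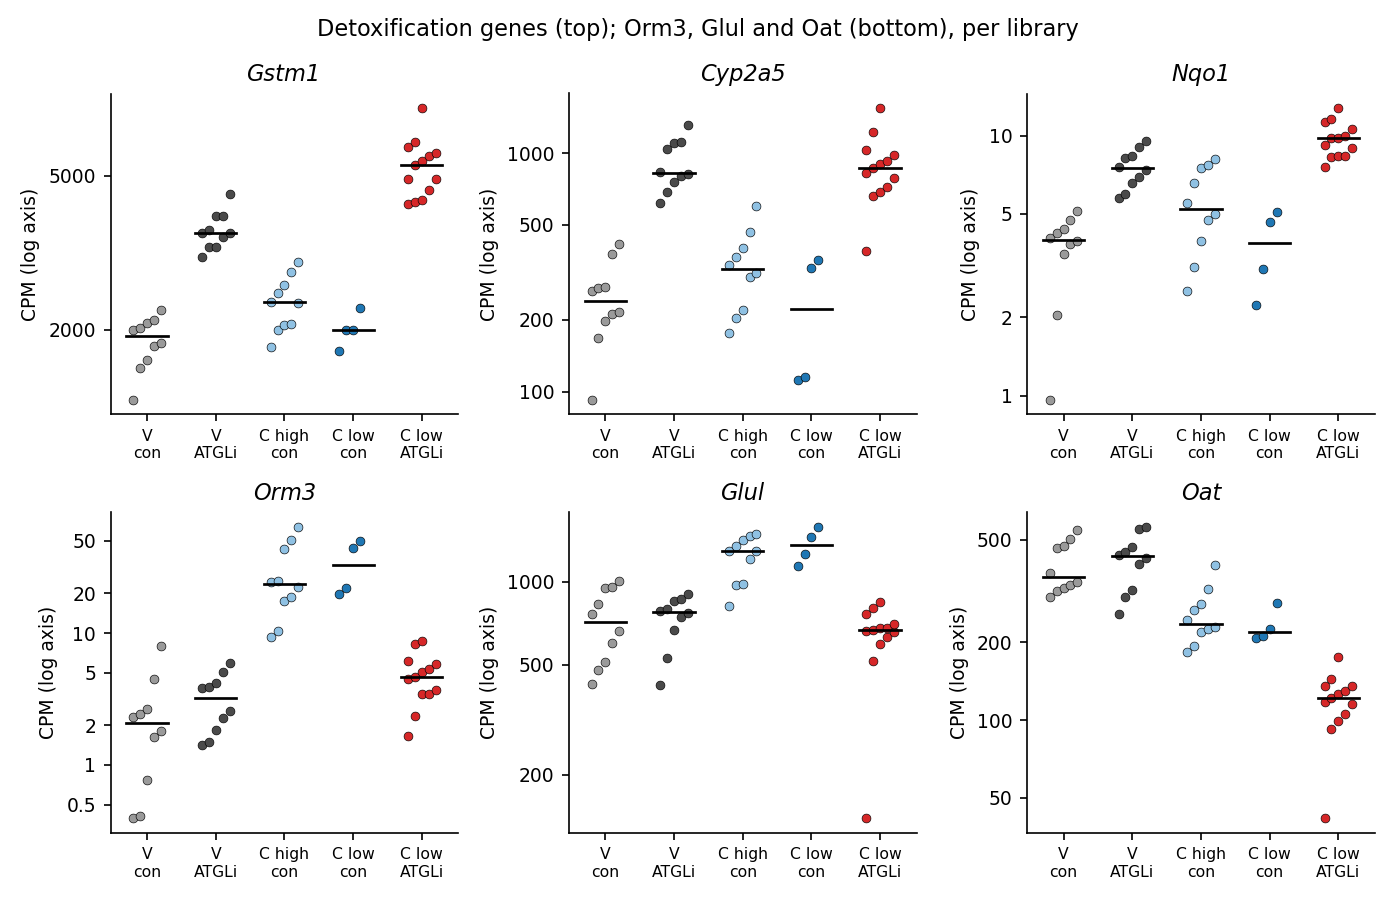
CPM per library on a log axis of Gstm1, Cyp2a5, Nqo1, Orm3, Glul and Oat in the same 5 groups, with bars at the median. In the bottom panels the 13 low-glucose atglistatin libraries lie below the 4 low-glucose controls, for Orm3 at 1.645 to 8.685 CPM against 19.8 to 49.6 CPM; in the top panels they lie above them.

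The drug target and its partners were not called. Pnpla2 was at 35.9, 57.7, 46.55 and 46.02 CPM in the controls and 36.9 to 102 CPM (median 44.02) with atglistatin, the highest value being that of replicate 41 (0.05 ± 0.20, adjusted p = 0.948). Abhd5, its activator, was at 33.95, 46.7, 53.2 and 32.98 CPM against 35.35 to 48.35 CPM (median 42.8; 0.01 ± 0.13, adjusted p = 0.983). G0s2, its inhibitor, was at 206, 94.2, 58.4 and 121 CPM against 49.7 to 135 CPM (median 80.3; -0.44 ± 0.41, adjusted p = 0.697). Atglistatin acts on the enzyme, whose activity these transcript levels do not measure. All 14 genes of the lipolysis list were tested and 0 were called by edgeR, with a median of 0.00.

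Genes of lipid droplets and fatty acid use were largely uncalled as well. Plin2, the droplet coat protein of hepatocytes, was at 229, 159, 156 and 240 CPM against 156 to 533 CPM (median 245; 0.49 ± 0.18, adjusted p = 0.147). Of 31 tested PPARα and fatty acid oxidation genes 0 were called (median 0.18, 27 with a positive value). Ppara itself was at 51.2, 39.3, 46.7 and 42.8 CPM against 52.4 to 102 CPM (median 63.3), without overlap. It did not pass (0.61 ± 0.20, adjusted p = 0.074), but was called without atglistatin replicate 41 (0.64, adjusted p = 0.0479) and with glucose as a covariate (0.81, adjusted p = 0.0435). Cpt1a, the entry step of fatty acids into mitochondria, did not pass (0.50 ± 0.17, adjusted p = 0.11).

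Gpam, which starts triglyceride synthesis, was at 1.78, 2.23, 2.35 and 3.52 CPM in the controls and 3.8 to 6.04 CPM (median 4.61) with atglistatin. It rose without overlap (0.95 ± 0.19, adjusted p = 0.00102) and was called in every leave-out. Acsl3, an acyl-CoA synthetase, was called (0.94 ± 0.22, adjusted p = 0.00633), but not without control-diet replicate 32 (0.89, adjusted p = 0.0561) or 33 (0.86, adjusted p = 0.0732). The lipogenic genes Srebf1 (-0.22 ± 0.30, adjusted p = 0.818), Fasn (-0.23 ± 0.25, adjusted p = 0.755) and Scd1 (-0.19 ± 0.34, adjusted p = 0.87) did not pass.

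Glucose production genes were not called, while glucose was lower in most atglistatin mice. Pck1, which commits carbon to gluconeogenesis, was at 1055, 830, 473 and 1534 CPM in the controls and 1006 to 2251 CPM (median 1406) with atglistatin (0.63 ± 0.36, adjusted p = 0.436). G6pc, which releases free glucose, was at 597, 492.8, 400 and 516 CPM against 78.5 to 483 CPM (median 344; -0.62 ± 0.30, adjusted p = 0.327). The values had opposite signs, and both genes overlapped between groups. Of 16 tested gluconeogenic genes 0 were called, and of 18 genes of glycolysis and glucose sensing 0 were called. Over all genes, 1898 had an unadjusted p under 0.05 in this comparison, and limma voom with sample weights called 1222 higher and 1414 lower, so a count of 0 in a short list is a statement about edgeR's adjusted threshold.

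Genes of the glucocorticoid receptor axis were mostly not called. Nr3c1, the receptor, was at 36.9, 40.5, 44.35 and 40.25 CPM in the controls and 27.95 to 48.3 CPM (median 42.6) with atglistatin (0.03 ± 0.10, adjusted p = 0.931). Fkbp5, its co-chaperone and direct target, was at 187, 385, 317 and 205 CPM against 110 to 326 CPM (median 185; -0.50 ± 0.29, adjusted p = 0.43). Tsc22d3, another target, did not pass (-0.55 ± 0.31, adjusted p = 0.413). Of 26 tested receptor targets 1 was called, Fam107a (-1.56 ± 0.40, adjusted p = 0.0176), and it was lost without control-diet replicate 32 (-0.72, adjusted p = 0.648) or 33 (-1.49, adjusted p = 0.105).

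Of the insulin and FoxO list, 1 of 21 tested genes was called, lower with atglistatin, beside 1.45% of all genes lower. That gene was Cited2 (-0.63 ± 0.19, adjusted p = 0.0482), a transcriptional co-regulator, and it lost its call in 12 of the 17 leave-outs. Irs2, an insulin receptor substrate that insulin represses, was at 16.01, 23.02, 38.9 and 15.97 CPM against 6.84 to 19.7 CPM (median 11.6; -1.02 ± 0.32, adjusted p = 0.0698), and was called without control-diet replicate 29 (-1.18, adjusted p = 0.0411) or 49 (-1.18, adjusted p = 0.0468), or atglistatin replicate 47 (-1.10, adjusted p = 0.0456). Igfbp1, another gene that insulin represses, was at 24.3, 46.1, 42.3 and 30.8 CPM against 7.25 to 470 CPM (median 24.9), the highest value being that of atglistatin replicate 41, which also had the lowest insulin label. Its log2 fold change was 0.77 ± 0.76, adjusted p = 0.729, and -0.42 without that library. Fgf21, a fasting-related hepatokine, likewise went from 0.53 ± 0.65, adjusted p = 0.794 to -0.48. In the hepatokine list 0 of 19 tested genes were called.

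Clock genes differed between the groups, and the labels give no time of collection. Of 21 tested 4 rose and 2 fell (median 0.01), beside 1.62% of all genes higher and 1.45% lower. With the log2 ratio of Dbp to Arntl as a covariate, with glucose as a covariate, and among mice with glucose of 120 or more, 1 rose and 0 fell in each case. Nr1d2, a repressor of the clock, was at 34.95, 17.9, 19.05 and 33.1 CPM in the controls and 41.7 to 69.35 CPM (median 53.96) with atglistatin, without overlap (1.09 ± 0.22, adjusted p = 0.00151). Dbp, a clock output gene, was at 3.17, 1.53, 2.505 and 2.77 CPM against 2.98 to 26.7 CPM (median 12.3), with 12 of 13 libraries above all controls (2.33 ± 0.65, adjusted p = 0.0316). It lost its call without atglistatin replicate 25 (2.18, adjusted p = 0.0512) or control-diet replicate 32 (2.15, adjusted p = 0.189), 33 (2.34, adjusted p = 0.148) or 49 (2.37, adjusted p = 0.0637). Without either of controls 32 and 33 the list gave 1 gene higher and 1 lower, without 49 or atglistatin replicate 25 it gave 2 and 2.

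In vehicle mice Dbp was also higher with atglistatin (2.95, adjusted p = 3.38e-05). With that ratio as a covariate 11 sterol genes and 8 p53 targets rose, and all calls together were 110 higher and 88 lower. Because Dbp enters that ratio and was itself higher with atglistatin in both comparisons, this fit cannot separate collection time from diet. The part of collection time in these results was not tested.

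A few markers of other liver cells were called lower with atglistatin, read against 1.45% of all genes lower. Of 22 tested genes of sinusoidal endothelial cells 3 fell and 0 rose (median -0.32), and the list summed to 515 to 565 CPM in the controls and 423 to 537 CPM with atglistatin. The 3 were Stab1 (-0.52 ± 0.12, adjusted p = 0.0075), Flt1 (-0.40 ± 0.11, adjusted p = 0.036) and Pecam1 (-0.36 ± 0.11, adjusted p = 0.0475), and none was called without control-diet replicate 32 or 33. Kupffer cell and macrophage markers summed to 345.5 to 392 CPM against 242 to 737 CPM, with 1 of 20 lower, Cd163 (-0.80 ± 0.21, adjusted p = 0.0237), which was lost without control-diet replicate 32 (-0.68, adjusted p = 0.211) or 33 (-0.59, adjusted p = 0.323). Stellate cell and matrix markers summed to 487 to 528 CPM against 395 to 688 CPM, with 2 of 22 lower, Tagln and Sparc, both lost without control-diet replicate 32 or 33. Cholangiocyte markers summed to 64.3 to 82.04 CPM against 43.9 to 62.2 CPM, without overlap of the sums and with 0 of 7 called. No marker of these 4 lists was at 0 in all libraries of either group, and their part in the changes of other genes was not tested.

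The T, NK and B cell list had 1 of 10 tested genes lower, beside 1.45% of all genes lower. That gene, Cd4, was at 0.387, 2.8, 3.03 and 0.8245 CPM in the controls and 0 to 0.754 CPM (median 0.396) with atglistatin (-2.24 ± 0.41, adjusted p = 3.48e-04). Controls 32 and 33 carried the high values there, and the summed list overlapped at 6.34 to 34.5 CPM against 3.83 to 22.65 CPM. Of 7 tested MHC class II and dendritic cell genes 0 were called, and of 28 tested interferon-induced genes 0 were called. Pancreatic acinar markers summed to 18.2 to 27.5 CPM in the controls, where 3 of them were at 0 in all 4 libraries, and to 9.725 to 131 CPM with atglistatin, with 0 of 12 called. Adipocyte markers summed to 940 to 1725 CPM against 201 to 2122 CPM.

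Of 34 tested liver genes known to be higher in males 3 fell and 0 rose (median -0.53), beside 1.45% of all genes lower, and of 16 tested genes known to be higher in females 0 were called (median 0.12). In vehicle mice 9 of the male-biased genes fell (median -0.87) and 6 of the female-biased rose (median 1.32), beside 1.72% of all genes lower and 1.5% higher there. The lists held 0 genes with a called difference between the effects in the corticosterone and vehicle mice. Mup17, of the near-identical major urinary protein family, was called here (-2.34 ± 0.64, adjusted p = 0.0266), but not without control-diet replicate 32 (-1.70, adjusted p = 0.351) or 33 (-2.27, adjusted p = 0.114).

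Several of the largest changes lay outside the lists. Mbl2 (ENSMUSG00000024863, chromosome 19, 30232942 to 30239687), a mannose-binding lectin of innate defence, was at 330, 213, 186 and 377 CPM in the controls and 491 to 1143 CPM (median 906) with atglistatin. The groups were separate and Mbl2 was 3.22-fold higher (1.69 ± 0.19, adjusted p = 1.08e-08). Dglucy, a D-glutamate cyclase gene, was at 26.4, 17.5, 16.4 and 23.3 CPM against 36.4 to 52.5 CPM (median 43.02), without overlap (1.07 ± 0.12, adjusted p = 1.43e-08).

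Oxct1, the enzyme of ketone body use that mature liver normally keeps low, fell (-1.91 ± 0.26, adjusted p = 1.19e-06). It was at 5.1, 27.35, 18.8 and 3.82 CPM in the controls and 2.5 to 4.89 CPM (median 3.63) with atglistatin. Replicates 32 and 33 held the high values, while replicate 49 lay within the atglistatin range, and with glucose as a covariate Oxct1 was not called (-1.85, adjusted p = 0.075).

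Slc34a2, a phosphate transporter, was at 11.1, 2.925, 3.34 and 9.29 CPM against 0.0806 to 1.48 CPM (median 0.673), without overlap (-3.10 ± 0.50, adjusted p = 4.62e-05). Acot11, an acyl-CoA thioesterase, was at 6.65, 11.2, 10.4 and 10.9 CPM against 1.65 to 4.62 CPM (median 4.15), also without overlap (-1.39 ± 0.23, adjusted p = 8.89e-05). Both lay below every control in all 13 atglistatin libraries.

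Some others of the 12 lowest rested on single controls. Rarres1 (-2.46 ± 0.53, adjusted p = 0.00292) was not called without control-diet replicate 32 (-1.94, adjusted p = 0.103) or 33 (-2.14, adjusted p = 0.0581), and its value was -3.06 without atglistatin replicate 41. Cyp4a12b (-1.77 ± 0.43, adjusted p = 0.0109), a male-biased P450, was lost without the same 2 (-1.48, adjusted p = 0.139, and -1.75, adjusted p = 0.0564). Cyp26a1, which degrades retinoic acid (-1.53 ± 0.33, adjusted p = 0.00337), was lost without control-diet replicate 49 (-0.85, adjusted p = 0.196), the control with its highest level. Tpm2, a tropomyosin gene, was near the threshold (-1.47 ± 0.42, adjusted p = 0.0368) and was lost in 7 leave-outs. The noncoding Gm13775 (-1.83 ± 0.40, adjusted p = 0.00362) was called in every leave-out.

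Among noncoding genes, 8 of 29 tested snoRNA genes were called and all 8 were higher, beside 1.62% of all genes higher. Gm22748, one of these, was at 56.8, 5.91, 4.59 and 15.1 CPM against 44.1 to 135 CPM (median 71.2; 1.76 ± 0.47, adjusted p = 0.0237). It moved to 3.02 without control-diet replicate 29 and lost its call without replicate 32 (1.45, adjusted p = 0.205), 33 (1.42, adjusted p = 0.2) or 49 (1.62, adjusted p = 0.0779). The lincRNA Gm26917 was higher without overlap (1.81 ± 0.24, adjusted p = 1.15e-06).

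The last question of the design was whether atglistatin had the same effect without corticosterone, in the 10 and 10 vehicle mice, which share no library with the comparison above. There 190 genes (1.5%) were higher and 218 (1.72%) were lower with atglistatin. The difference between the effects, tested as an interaction, was more positive under low-glucose corticosterone for 40 genes (0.315%) and more negative for 19 (0.15%). These counts were 22 and 4 without control-diet replicate 33, 26 and 6 without replicate 32, and 55 and 29 without atglistatin replicate 41. The vehicle mice were not chosen by glucose; their labels ran from 113 to 146 on the control diet and from 100 to 159 on atglistatin.

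Sterol synthesis held 14 of the 40 genes with a more positive effect, which were 0.315% of all genes tested. Of the 25 sterol genes 0 had a more negative one, and in vehicle mice 0 rose and 2 fell (median -0.19). The number was 10 without control-diet replicate 33 and 7 among mice with glucose of 120 or more. Sqle differed by 2.22, adjusted p = 0.00466, with a vehicle effect of -0.19, and Hmgcs1 differed by 1.97, adjusted p = 4.51e-04, with a vehicle effect of -0.62. Cyp51 differed by 1.89, adjusted p = 0.0018, with a vehicle effect of -0.20, and Fdft1 differed by 1.73, adjusted p = 5.45e-05, with a vehicle effect of -0.15. These 4 kept the call whichever of the 17 libraries was left out, as did Msmo1 (1.86), Nsdhl (1.80), Lss (1.52), Dhcr7 (1.42), Hsd17b7 (1.33) and Sc5d (1.13). Sc5d (-0.48, adjusted p = 0.0105) and Dhcr7 (-0.58, adjusted p = 0.041) fell under vehicle, so for both genes the called effects had opposite signs.

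Of the p53 list 4 of 20 differed, all more positive, beside 0.315% of all genes more positive. Phlda3 differed by 2.75, adjusted p = 1.77e-04, Tnfrsf10b by 3.48, adjusted p = 0.00379, Mdm2 by 1.00, adjusted p = 4.51e-04 and Ccng1 by 1.02, adjusted p = 0.00622. The first 3 held in every leave-out, while Ccng1 was lost without control-diet replicate 33 or 49 (highest adjusted p = 0.0627). Under vehicle Ccng1 rose by 0.54, adjusted p = 0.00856, and Eda2r by 1.80, adjusted p = 0.00146, and the difference for Eda2r did not pass (2.17, adjusted p = 0.101).

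Of the drug metabolism genes named above, the interaction was called in Cbr3 (1.84, adjusted p = 0.0429) alone, and that call was lost in 10 of the 17 leave-outs (highest adjusted p = 0.207). Gstm1 (0.95), Cyp2a5 (1.86), Nqo1 (1.04) and Cyp1a2 (1.41) rose under vehicle too. Their differences from the corticosterone effect did not pass (Gstm1 0.45, adjusted p = 0.377; Cyp2a5 0.10, adjusted p = 0.982; Nqo1 0.34, adjusted p = 0.876; Cyp1a2 -0.02, adjusted p = 0.997), which does not show that the effects were equal.

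Orm3 differed by -3.18, adjusted p = 9.10e-04, against a vehicle effect of 0.39, and held in every leave-out. Oat differed by -1.04, adjusted p = 0.0378 and was lost without atglistatin replicate 47 or control-diet replicate 32, 33 or 49 (highest adjusted p = 0.103), and the difference for Glul did not pass (-1.11, adjusted p = 0.0565). Oxct1 differed by -1.51, adjusted p = 0.0218 and was lost without control-diet replicate 32 or 33 (highest adjusted p = 0.475). Mbl2 differed by 1.12, adjusted p = 0.00343, with a smaller rise under vehicle (0.56, adjusted p = 0.00768), and held in every leave-out. Fkbp5, which rose under vehicle (0.94, adjusted p = 0.0235), did not pass for the difference (-1.44, adjusted p = 0.0718).

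The other genes with a more negative effect among the 8 lowest that averaged at least 5 CPM were Rusc1 (-1.03), Tpbgl (-1.0), Col13a1 (-0.96), Iqsec2 (-0.85) and the nucleotide receptor gene P2ry2 (-0.74), and each lost its call in at least 1 leave-out. Of the 19 genes with a more negative effect, some below that level and named after their values were seen had larger sizes than these. Cib3 differed by -3.90, adjusted p = 0.00379 and the clock gene Bhlhe41 by -2.95, adjusted p = 0.0155, both lost without control-diet replicate 33, and Msmp by -2.61, adjusted p = 0.0207, lost without replicate 32 or 33. Rcan2, an inhibitor of calcineurin also below that level and named in the same way, differed by -1.89, adjusted p = 0.00141 and held in every leave-out.

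The 4 low-glucose controls were also compared with the other corticosterone controls. Between the 10 mice with glucose of 242 or more and these 4, edgeR called 0 of 12688 genes (0%), with 771 at an unadjusted p under 0.05. DESeq2 called 7 and limma voom with sample weights called 629. This contrast shares the 4 controls with the comparison above, so the values of the 2 contrasts are not independent.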

How the data were processed

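RNA of powdered mouse liver was sequenced as 48 QuantSeq 3′ libraries with 50-base reads, per the labels' protocols. The authors deposited a table of counts per gene (14251 genes, whole numbers) and a table of normalized signal; each library's signal equalled its counts divided by 1 factor, with a largest relative deviation of 1.0e-14, and it was not used for tests. The submitters' processing notes name R 3.6, DESeq2 1.24.0 and GRCm38; neither aligner, counter nor strandedness is stated there (not given in the sources used here), so reads of overlapping, antisense and near-identical genes (Saa, Orm, Mup, Gstm, Gsta, Cyp2a, Cyp4a) may be shared. Gene symbols came from the normalized table (12491) or GENCODE M21 (1728), and 32 genes had none. The smallest gene total was 144.

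Groups came from the treatment, diet and glucose labels. edgeR 4.0.16 (R 4.3.3, limma 3.58.1) was run on the counts of all 48 libraries, which share 1 estimate of the spread: filterByExpr (minimum count 10, minimum total 15), TMM scaling, and quasi-likelihood tests of 4 contrasts, with Benjamini-Hochberg adjustment over all 12688 genes and a threshold of 0.05. Labels do not say that mice were housed or processed separately, so p-values measure the spread between these samples. Libraries of a group differed by a chi-square of at least 9.07 per degree of freedom, and 0 libraries were identical. On simulated counts, 12558 genes were tested, of which a subset was changed. The comparison recovered 56.7% of those changed 1.5-fold, 74.6% at 2-fold and 100% at 4-fold, and 5.5% of its calls were false. The simulated libraries of a group varied independently, so the share of false calls may differ in these data.

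Insulin was compared with an exact permutation test. The mice, the 39 gene lists and the rule for named genes were chosen with earlier results of these data known. That rule took the 12 highest and 12 lowest called genes with a mean of at least 5 CPM, the 8 highest and 8 lowest by the same measure for the difference from vehicle, up to 4 members of each list by p, and a set list of metabolic and glucocorticoid genes; further list members, and Dglucy, Rcan2, Cib3 and Msmp, were named after their values were seen. Alternatives were RLE scaling, no filter, DESeq2 1.42.0, limma voom with sample weights, robust estimation, the compared groups alone, glucose, log2 insulin or a clock ratio as covariate, glucose of 120 or more, the label Nondiabetic in place of the limit, leaving out libraries with Cpa1 above 20 CPM, and leaving out each of the 17 libraries. Promoters came from RefSeq (GRCm38.p6). The corticosterone atglistatin mouse with glucose of 212 had a term of its own in the fit and entered no comparison. A few list members are counted in their lists and not reported here singly.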

Additional observations from a re-analysis of the deposited data

Results flagged for a closer look

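Among 124 sets of 1 gene or label in 1 group of 4 to 10 samples, 15 had a sample far from the rest. Chance gives about 1 in 20 if values are normally spread, which was not tested. The sets share libraries and genes, so they are not independent. The 13 low-glucose atglistatin mice lay outside this screen. In the corticosterone mice of higher glucose on the control diet, replicate 45 had 56.86 CPM of Sqle against 4.08 to 26.8 in the others, 31.03 CPM of Fdft1 against 7.92 to 19.6, and 83.17 CPM of Pnpla2 against 26.5 to 52.7. Replicate 34 of that group had 766.1 CPM of Saa1 against 7.39 to 221.9, and the lowest insulin label, 16.81 against 29.3 to 39.8. In the low-glucose controls, replicate 49 had 152 CPM of Sc5d against 91.4 to 97.8, and replicate 29 had 1.933 CPM of Cbr3 against 0.835 to 1.02. In vehicle mice on the control diet, replicate 2 had 25.56 CPM of Ccng1 against 13.9 to 19.7, replicate 10 had 37.92 CPM of Mdm2 against 20.6 to 29.3, and replicate 9 had 806.8 CPM of Saa1 against 24.1 to 300.5. In vehicle mice on atglistatin, replicate 11 had 299.5 CPM of Gstm3 against 113.5 to 202.7, replicate 13 had 125.9 CPM of Saa1 against 16.3 to 54.5, replicate 8 had 3.733 CPM of Oxct1 against 5.18 to 6.72, replicate 6 had 1.087 CPM of Slc34a2 against 0 to 0.4935, and replicate 14 had 79.0 CPM of Pnpla2 against at most 54.2.

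By edgeR's interaction test, the atglistatin effect under low-glucose corticosterone differed from that under vehicle in 15 of the genes screened here. Other named genes with a called difference, among them Tnfrsf10b, Lss, Dhcr7 and Hsd17b7, are given above and not repeated. On the log2 scale the difference was 2.22 for Sqle, 1.97 for Hmgcs1, 1.89 for Cyp51, 1.86 for Msmo1, 1.80 for Nsdhl, 1.73 for Fdft1 and 1.13 for Sc5d, all of sterol synthesis. It was 2.75 for Phlda3, 1.02 for Ccng1 and 1.00 for Mdm2 among the p53 targets, 1.84 for Cbr3 and 1.12 for Mbl2. It was -3.18 for Orm3, -1.51 for Oxct1 and -1.04 for Oat.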

How the results depend on the processing

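The main counts were 205 higher and 184 lower with atglistatin, 40 and 19 for a more positive or more negative effect than under vehicle, 408 under vehicle and 0 between the corticosterone control-diet mice of higher and low glucose. With glucose as a covariate 59 were higher and 28 lower, with the clock ratio as a covariate 110 and 88, and with glucose of 120 to 150 only 100 and 47. Under limma voom with sample weights they were 1222 and 1414, with 429 and 341 for the difference, 912 under vehicle and 629 between the control-diet mice. DESeq2 gave 64 and 36 for the difference and 7 between the control-diet mice. The glucose range of 120 to 150 gave 21 and 3 for the difference. Without the libraries with Cpa1 above 20 CPM, the difference was more negative for 8 genes and 209 genes changed under vehicle. Leaving out 1 of the 17 libraries gave 81 to 256 higher and 51 to 329 lower, 22 to 55 more positive and 4 to 29 more negative, 0 to 5 between the control-diet mice, and an insulin difference of -10.52 to -0.792. The insulin difference was 3.75 with glucose of 120 to 150 only, where 8 fewer atglistatin mice enter; the cause of the other shifts was not tested. RLE scaling, DESeq2, no filter, robust estimation, the compared groups alone, log2 insulin as a covariate and the label Nondiabetic kept both main counts within 1.5 times. Over 30 genes tested under these settings, 856 values kept their direction and side of the threshold, 12 fell below it and 2 rose above it, with 0 reversed. No paired analysis was possible because the low-glucose groups share no replicate number in the labels. The 4 controls limit the precision of every value here.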
